A study of Mus musculus with 9 samples.

Results

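The Myc, Pvt1 and downstream window is the 1 Mb of mouse chromosome 15 at chr15:61750000-62750000 in the mm8 build, and the distal group is the cluster of Stat5 peaks at its downstream end, chr15:62636624-62665318. The members were chosen by position on the basis of peaks and read levels in these same libraries, so the levels given for the window and the group are descriptions and no test was run on them. The 6 deposited peak lists, 1 per ChIP library, were joined into 43771 merged regions where peaks overlapped by at least 1 bp. Of these, 89 lie in the window, 11 in the distal group and 78 in the rest of it. The 2 member genes, Myc and Pvt1, were placed in the window by its definition, and the exact position of a region relative to them is not given here, because the gene table at hand is in another build. In that table the order of genes is Gm18154, Gm18788, Myc, Pvt1, Macroh2a3, Gm41333 and Gm22521.

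The groups are Stat5b, Stat5a and IgG control immunoprecipitates of mouse CD4+ T cells. The cells were collected 8 h or 13 h into Th2 differentiation, which yields helper cells that make IL-4, or once 2 rounds of it were complete (called after 2 rounds here). ChIP-seq fixes a protein to the DNA it sits on, pulls it down with an antibody and sequences the DNA that comes along. Each antibody and stage has 1 library, 9 in all, with no replicates. Each comparison is therefore between libraries, not between conditions, and no p-value is given. The labels name the cells only as CD4+ T cells and give no strain, sex, age or number of animals.

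Myc is a transcription factor that drives growth and division, and its transcription is switched on when T cells are activated and receive IL-2. Pvt1 is a long noncoding RNA gene that lies next to Myc, and the gene-poor interval beyond it is known to hold distal enhancers of Myc in blood cells. Stat5a and Stat5b are closely related factors that are phosphorylated downstream of the IL-2 receptor and other cytokine receptors, move to the nucleus and bind DNA.

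Depth ranged from 3130228 mapped reads (Stat5a at 8 h) to 9036070 (Stat5b at 13 h), and reads were counted by their 5' end and scaled to 1000000 mapped reads (RPM) in each library. Intervals of ratios are exact conditional intervals at 95%, shares carry Wilson intervals, and both cover counting error only, because copies of 1 molecule made by PCR cannot be recognised here. A region counted as called where the whole interval of its ratio was above 2 (higher) or below 0.5 (lower), and "rose" and "fell" are used only of what was called. In 4 libraries some reads were 24 bp long and the rest 25 bp: Stat5a and IgG at 13 h, and Stat5a and IgG after 2 rounds. In Stat5a after 2 rounds the 24 bp and 25 bp reads gave different levels in this window, so values with 25 bp reads alone are printed beside the main ratios and counts that rest on that library.

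Reads in the window sat in narrow stretches. The merged regions cover 6.26% of the window. In order of stage they held 23.7%, 37.0% and 57.9% of the window's Stat5b reads, 36.5%, 31.5% and 40.9% of its Stat5a reads, and 10.7%, 10.1% and 9.81% of its IgG reads. Over the whole chromosome the same shares were between 4.46% and 21.6% for the ChIP libraries and between 2.45% and 3.07% for IgG. Regions cover less of the chromosome, 1110 kb with 102382 kb outside them, so these shares are not at equal coverage. Per kb of region the ChIP libraries had 2.35 to 14.1 RPM in the window and 1.63 to 8.35 RPM over the chromosome, each higher in the window. IgG had 0.896 to 1.06 RPM and 0.921 to 1.14 RPM. The regions are unevenly spread: the 5 successive 200 kb segments of the window hold 8, 25, 20, 4 and 32 of them. The longest stretch without a region is 93.6 kb, between 62313703 and 62407299, and the next is 81.0 kb, between 62446906 and 62527949, which together part the upstream regions from those at the downstream end. In the 1 kb bins, the bin with the most reads was 61999001-62000000 in Stat5b at 8 h and at 13 h, with 46 and 154 reads, and 62582001-62583000 after 2 rounds, with 353 reads. In Stat5a it lay in the distal group at 8 h, 62653001-62654000 with 66 reads, and at 13 h, 62654001-62655000 with 96 reads. After 2 rounds it was 62582001-62583000 with 244 reads. No bin of the distal group held the most reads of an IgG library.

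**Figure D1:**
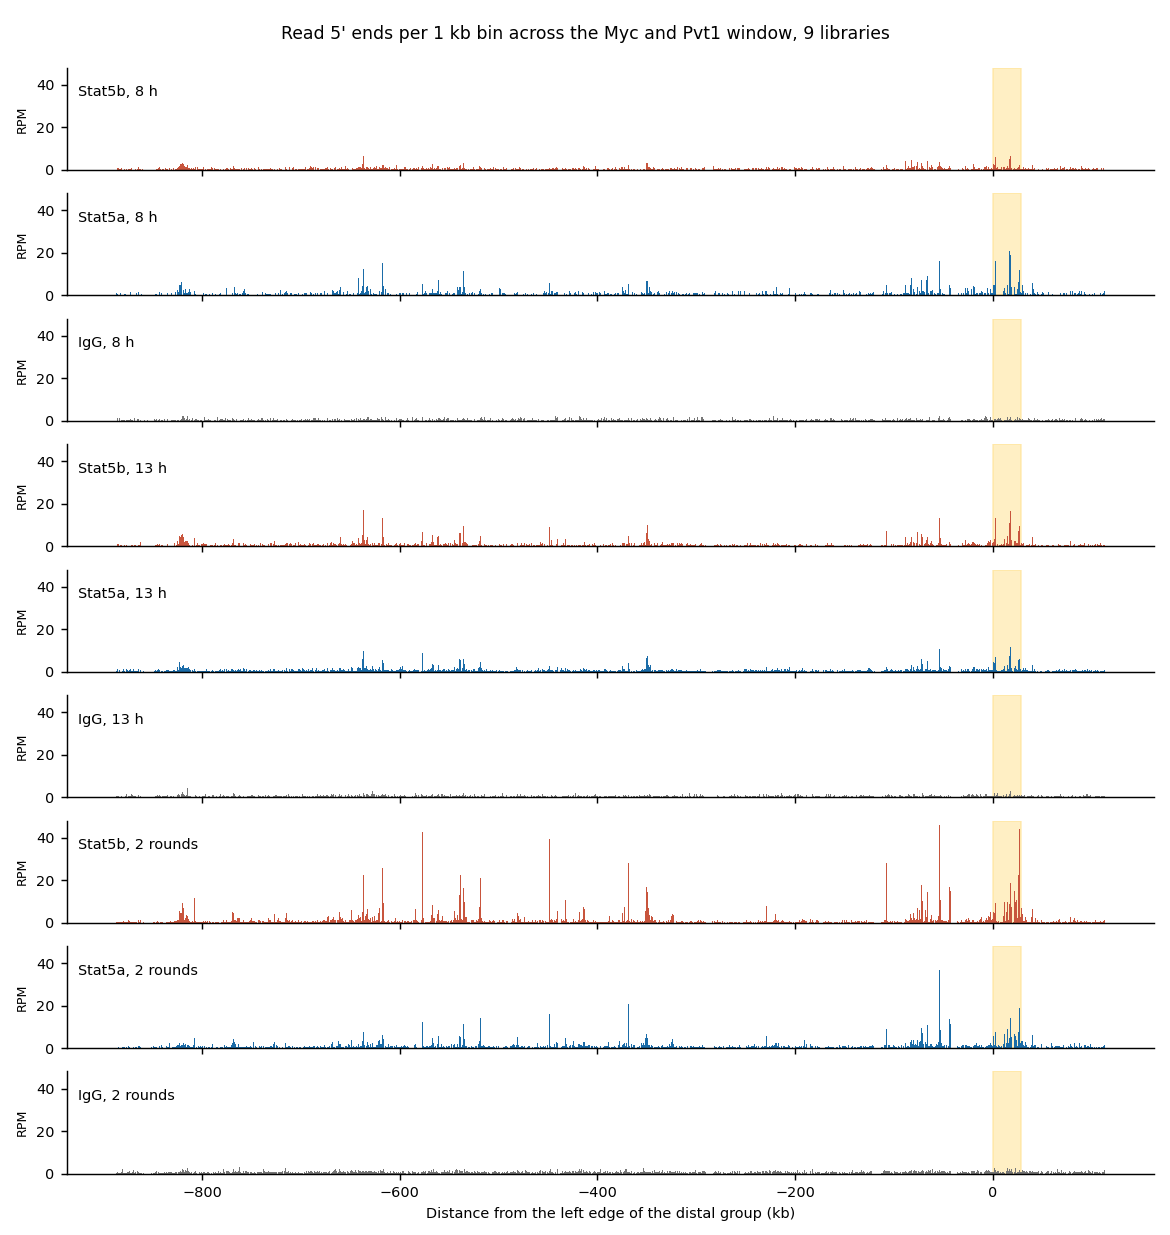
RPM by 5' end in each 1 kb bin of the window (vertical axis) against distance from the left edge of the distal group (horizontal axis, kb), for each of the 9 libraries, with the distal group shaded. Peaks stand over a low background in the 6 ChIP libraries, with the tallest bin at 46.1 RPM in Stat5b after 2 rounds, while no IgG bin exceeds 4.12 RPM.

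The window is dense in deposited peaks. In order of stage it holds 28, 51 and 74 Stat5b peaks and 43, 43 and 49 Stat5a peaks, against means of 1.54, 5.13 and 13.0 Stat5b peaks and 2.16, 5.53 and 3.79 Stat5a peaks over the 2584 tiles of 1 Mb in the genome. Among these tiles it ranks 1 in 4 of the 6 lists (Stat5b at 13 h and Stat5a at all 3 stages), 3 in Stat5b at 8 h and 7 in Stat5b after 2 rounds. The window was chosen for its peaks, so these ranks describe it and test nothing. Its peaks also recurred between lists: 12 of the 89 regions (13.5%) are in all 6 lists, against 2.63% of all merged regions, and 25 (28.1%) are in lists of all 3 stages, against 8.59%. At the other end, 36 regions (40.4%) are in 1 list, against 63.3% of all merged regions. In the distal group 2 of 11 regions are in all 6 lists, 5 are in lists of all 3 stages and 8 are in at least 3 lists, against 17.0% of all merged regions. Of the 11, 0 come from Stat5a lists alone and 1 from a Stat5b list alone, against 19.3% and 51.5% of all merged regions.

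Stat5b and Stat5a peaks of a stage overlapped, to a share that depended on which list was the longer. At 8 h, 24 of 26 joined Stat5b peaks (92.3%) overlapped a Stat5a peak, and 16 of 40 Stat5a peaks (40.0%) overlapped a Stat5b peak. At 13 h the shares were 34 of 49 (69.4%) and 35 of 43 (81.4%), and after 2 rounds 39 of 71 (54.9%) and 45 of 48 (93.8%). In the window the shorter list was thus nearly contained in the longer one at 8 h and after 2 rounds, with the antibodies in opposite roles. The same shares over the whole lists are not given here, so the overlap is not read as particular to the window. The median Stat5b peak in the window was 99.0 bp wide at 8 h and 732 bp after 2 rounds, and where the overlap had to reach 50% of each peak's width, 3, 26 and 23 Stat5b peaks, in order of stage, still overlapped a Stat5a peak.

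The distal group stood above IgG with both antibodies at every stage, most for Stat5a at 8 h and for Stat5b after 2 rounds. Stat5b in the 11 regions together had 30.6 RPM at 8 h, 80.1 RPM at 13 h and 180 RPM after 2 rounds. Stat5a had 97.4, 53.9 and 94.1 RPM at the same stages, and IgG had 8.97, 10.5 and 16.1 RPM. Stat5b was lowest at 8 h and highest after 2 rounds, whereas Stat5a was lowest at 13 h. The Stat5b level was 3.41 times that of IgG at 8 h (95% interval 2.53 to 4.66), 7.63 times at 13 h (6.04 to 9.75) and 11.2 times after 2 rounds (9.06 to 13.9). The Stat5a level was 10.9 times that of IgG at 8 h (8.14 to 14.7), 5.13 times at 13 h (4.03 to 6.61) and 5.85 times after 2 rounds (4.70 to 7.36), or 5.25 times (2.92 to 10.4) with 25 bp reads alone. Both antibodies' lists help to choose the regions counted, and that choice favours levels above IgG.

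In the rest of the window the ratios to IgG were 2.47, 5.64 and 14.0 for Stat5b and 5.47, 4.17 and 7.15 for Stat5a, in order of stage. The distal group thus exceeded the rest at 8 h and at 13 h, by 1.38 and 1.35 times for Stat5b and by 1.99 and 1.23 times for Stat5a. After 2 rounds its ratio to IgG was below that of the rest, at 0.798 times for Stat5b and 0.819 times for Stat5a. Its level per kb of region was still above the rest then, at 17.2 against 13.4 RPM for Stat5b and 9.01 against 6.85 RPM for Stat5a. IgG per kb was also higher in the group, at 1.54 against 0.958 RPM, on 93 reads in the group. The difference between the sets was not tested. Of the window's region reads above IgG, the distal group held 23.7%, 24.1% and 20.1% for Stat5b and 29.6%, 22.5% and 20.3% for Stat5a, in order of stage, on 10444 of 62563 bp. The typical merged region of the genome was above IgG as well, by a median of 1.51, 2.91 and 6.05 times for Stat5b and 2.66, 2.41 and 2.61 times for Stat5a over regions with reads in both libraries. Relative to that median the distal group was 2.25 times higher for Stat5b at 8 h (1.67 to 3.08) and 1.85 times higher after 2 rounds (1.5 to 2.31). It was 2.13 times higher for Stat5a at 13 h (1.67 to 2.74) and 2.24 times higher after 2 rounds (1.80 to 2.82). In the remaining libraries the group's ratio to IgG was 7.63 for Stat5b at 13 h, beside a median of 2.91. For Stat5a at 8 h it was 10.9, beside a median of 2.66.

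Within the group 3 regions carried most reads, and in Stat5b the weight lay on a different one after 2 rounds than before. The regions are between 318 and 2199 bp wide, with a median of 884 bp, and gaps between neighbours run from 6 to 8143 bp. The widest region, chr15:62653332-62655530, was in all 6 lists. It had 12.7, 28.9 and 32.9 RPM of Stat5b and 42.5, 19.3 and 22.3 RPM of Stat5a, in order of stage, against 2.56, 3.45 and 4.15 RPM of IgG. It was the highest of the 89 regions in both ChIP libraries at 8 h and at 13 h. After 2 rounds the highest region of the group in Stat5a had 24.1 RPM, close to the 22.3 RPM here. On 25 bp reads alone 62653332 still led the group in Stat5a, with 34.5% of its reads against 11.0% at 62662555. The reads of 62653332 fell into neighbouring bins: at 8 h, 62653001-62654000 held 37 Stat5b and 66 Stat5a reads and 62654001-62655000 held 45 and 59. After 2 rounds the first of these bins held 67 Stat5b and 30 Stat5a reads and the second 141 and 93.

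The region chr15:62638821-62639639, also in all 6 lists, was high early. It had 6.12, 13.7 and 10.3 RPM of Stat5b and 17.3, 7.46 and 7.37 RPM of Stat5a, in order of stage, against 0.961, 0.266 and 1.21 RPM of IgG. Its ratio to IgG passed at every stage with both antibodies, on 2 to 7 IgG reads. The next region to its left, chr15:62638115-62638432, was found in the lists of Stat5a at 8 h and Stat5b at 13 h and had between 5 and 18 ChIP reads per library. The first of the group, chr15:62636624-62637768, had 2.77, 3.32 and 6.01 RPM of Stat5b and 5.43, 4.45 and 4.36 RPM of Stat5a. At 8 h it had 0 IgG reads, so that with IgG set at a floor of 3 counts it was at least 5.76-fold higher in Stat5b and at least 11.3-fold higher in Stat5a.

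The region chr15:62662555-62663581 was highest late in Stat5b, and in Stat5a only with its 24 bp reads included. It had 2.91, 15.5 and 63.3 RPM of Stat5b and 17.3, 9.75 and 24.1 RPM of Stat5a, in order of stage, against 1.60, 0.930 and 0.864 RPM of IgG. On 25 bp reads alone it had 12.4 RPM of Stat5a at 13 h and 5.29 RPM after 2 rounds. Its Stat5a ratio of these stages was then 0.426 (0.230 to 0.746). After 2 rounds it had more Stat5b reads than any other region of the window, 485, and stood 73.3 times above IgG (31.2 to 227), on 5 IgG reads. At 8 h no Stat5b peak was listed there, although Stat5a had one. Nearby, chr15:62658228-62659555 had 1.16, 3.43 and 19.3 RPM of Stat5b and 4.15, 3.61 and 8.73 RPM of Stat5a, and chr15:62659562-62660445, 6 bp further on, had 0.582, 2.99 and 12.9 RPM of Stat5b and 0.958, 1.68 and 5.87 RPM of Stat5a. At 8 h this last region was not above IgG, with 4 Stat5b and 3 Stat5a reads against 8 IgG reads.

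Of the remaining regions, chr15:62647783-62648712 had 1.02, 3.98 and 12.7 RPM of Stat5b and 3.51, 3.37 and 7.83 RPM of Stat5a. The region chr15:62651070-62651884 had 1.89, 4.21 and 9.14 RPM of Stat5b and 3.51, 2.89 and 8.88 RPM of Stat5a, but also 2.76 RPM of IgG after 2 rounds against 0.266 RPM at 13 h, so it did not pass against IgG at the last stage. The region chr15:62650191-62650712 was listed for Stat5b after 2 rounds alone, with 4, 11 and 28 Stat5b reads and 0, 1 and 12 Stat5a reads. The last of the group, chr15:62664862-62665318, was listed only after 2 rounds, with 1, 8 and 61 Stat5b reads and 1, 2 and 14 Stat5a reads. All 11 regions therefore had their highest Stat5b level after 2 rounds except the pair at 62638115 and 62638821, which were higher at 13 h.

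**Figure D2:**
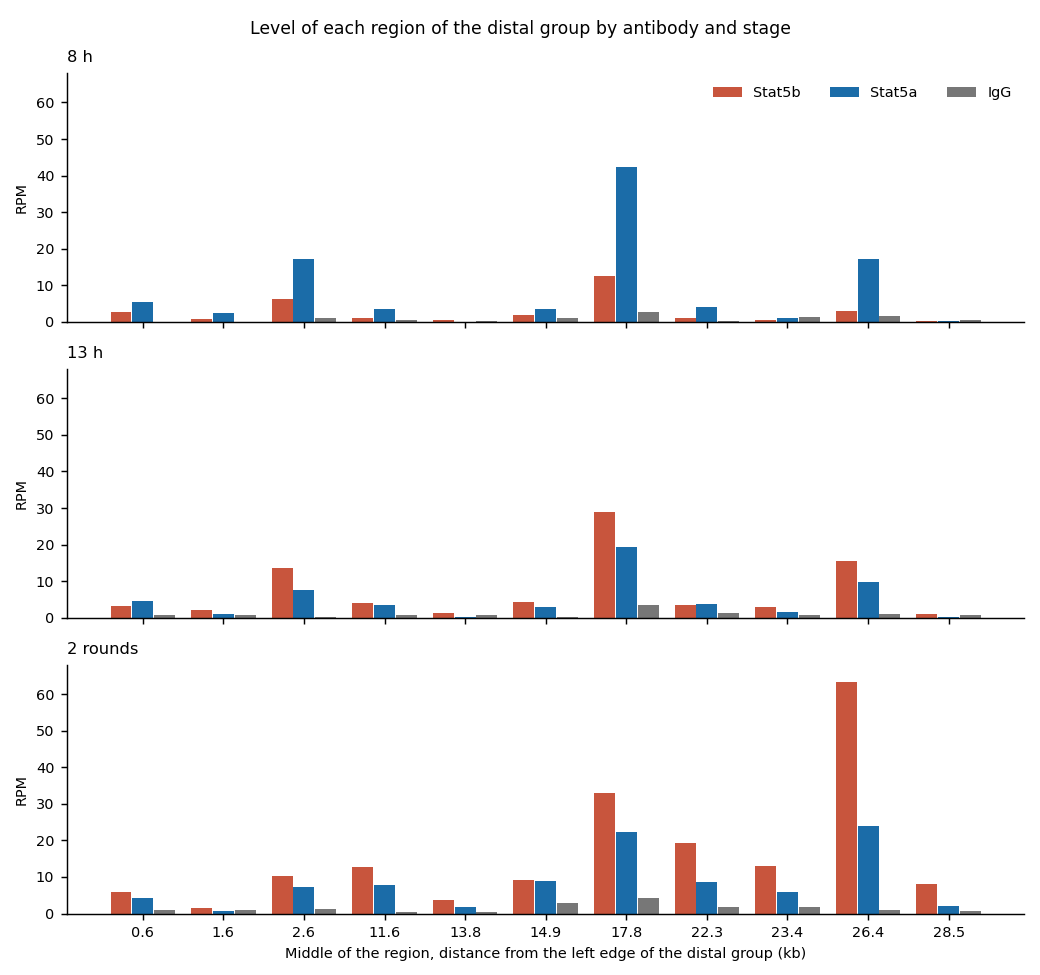
RPM (vertical axis) of Stat5b, Stat5a and IgG in each of the 11 regions of the distal group, placed by the distance of their middle from the group's left edge in kb, with a panel per stage and 1 library per bar. The region at 17.8 kb leads at 8 h and 13 h. After 2 rounds the region at 26.4 kb leads in Stat5b, at 63.3 RPM, while in Stat5a it is close to the region at 17.8 kb. On 25 bp reads alone, not drawn, the region at 17.8 kb had 16.5 RPM of Stat5a after 2 rounds, against 5.29 RPM at 26.4 kb.

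The edge of the group is set by listing, not by level. Just outside it on the left, chr15:62633845-62634575 had 5, 25 and 41 Stat5b reads and 7, 2 and 21 Stat5a reads, in order of stage, and just outside on the right, chr15:62666594-62667040 had 1, 5 and 32 and 10, 4 and 18. Just inside, the first and the last region of the group had 19, 30 and 46 and 1, 8 and 61 Stat5b reads. With the bounds widened by 10 kb on each side the group's share of the window's region reads above IgG was between 21.3% and 31.0% over the 6 libraries.

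Regions called above IgG were fewer for Stat5b than for Stat5a at 8 h and more after 2 rounds. At 8 h, 9 of 89 window regions passed for Stat5b (2.92% of all merged regions did) and 32 for Stat5a (11.2% of all). At 13 h, 31 passed for Stat5b (17.5% of all) and 27 for Stat5a (13.9%), and after 2 rounds 63 for Stat5b (46.5%) and 30 for Stat5a (13.9%). In the distal group the counts of 11 were 3, 5 and 9 for Stat5b and 6, 5 and 5 for Stat5a, in order of stage. These shares of the window lay above those of all merged regions in each library, and the rule for the window used peaks from the same libraries, so nothing is read from the excess. Scaled by the median ratio of all merged regions, the window counts were 3, 6 and 9 for Stat5b and 8, 3 and 10 for Stat5a, in order of stage. With 25 bp reads alone, 9 regions passed for Stat5a after 2 rounds and 32 for Stat5b against 25 bp IgG reads. Shares of all merged regions under both alternatives are not given here, so nothing is read from their counts.

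Between 8 h and 13 h the ratios of the distal group lay on opposite sides of 1 for the antibodies. Stat5b rose, to 80.1 RPM at 13 h against 30.6 RPM at 8 h, a ratio of 2.62 (2.24 to 3.07). Stat5a had 53.9 RPM at 13 h against 97.4 RPM at 8 h, a ratio of 0.553 (0.477 to 0.642) that was below 1 but did not pass as a fall. IgG had a ratio of 1.17 (0.820 to 1.68). All 11 regions had a Stat5b ratio above 1, and 9 of 11 had a Stat5a ratio below 1. The region at 62662555 was the 1 of 11 called (5.27% of all merged regions were), with a Stat5b rise of 5.32 times (3.32 to 8.98), while no region of the group was called for Stat5a. Over all merged regions the median ratio was 1.90 for Stat5b (log2 0.93) and 0.869 for Stat5a (log2 -0.20). Relative to these medians the group's ratio was 1.38 (1.18 to 1.62) for Stat5b, which is not a call, and 0.637 (0.549 to 0.739) for Stat5a. On distinct starts the Stat5b ratio was 2.09 (1.74 to 2.52), also not a call.

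From 13 h to 2 rounds Stat5b rose again in the group, to 180 RPM after 2 rounds against 80.1 RPM at 13 h, a ratio of 2.24 (2.05 to 2.46). The call was lost on distinct starts, at 2.14 (1.90 to 2.43), and over the whole interval, at 2.13. The median merged region went further, with a ratio of 2.58 (log2 1.37), so that relative to it the group was at 0.870 (0.794 to 0.953). Stat5a had 94.1 RPM after 2 rounds against 53.9 RPM at 13 h, a ratio of 1.74 (1.54 to 1.97), and the median merged region had 1.25. With 25 bp reads alone the direction turned, to 0.702 (0.575 to 0.854), and with 24 bp reads alone, chosen after seeing the data, it was 4.36 (3.49 to 5.49). IgG had a ratio of 1.53 (1.12 to 2.09) over the same stages. In Stat5b 5 of 11 regions rose (25.1% of all merged regions did), those at 62647783, 62658228, 62659562, 62662555 and 62664862, by between 3.18 and 9.0 times. The region at 62653332 had a ratio of 1.14 (0.954 to 1.36) and the region at 62638821 of 0.752 (0.560 to 1.0).

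Across the whole course, Stat5b rose to 180 RPM after 2 rounds against 30.6 RPM at 8 h, a ratio of 5.88 (5.08 to 6.83), beside a median of 4.82 over all merged regions. Stat5a had a ratio of 0.965 (0.840 to 1.11), or 0.492 (0.401 to 0.602) with 25 bp reads alone. In Stat5b 8 of 11 regions rose (43.4% of all merged regions did), by between 2.60 times (2.03 to 3.35) at 62653332 and 54.7 times at 62664862, the last on 61 reads against 1. On distinct starts 6 of 11 were called (31.0% of all merged regions were), and 62653332 was not, at 2.13 (1.60 to 2.87). Relative to the median merged region its ratio was 0.539. At 62662555 the rise was 21.7 times (13.9 to 35.9) and at 62658228 it was 16.6 times (8.20 to 39.1). The region at 62653332 had a Stat5a ratio of 0.524 (0.412 to 0.668) over the same stages.

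The make-up of the group shifted toward its right end after 2 rounds in Stat5b, and in Stat5a only with its 24 bp reads included. The region at 62653332 held 41.4% of the group's Stat5b reads at 8 h (35.0 to 48.2), 36.0% at 13 h (32.6 to 39.6) and 18.3% after 2 rounds (16.4 to 20.4). In Stat5a it held 43.6% (38.2 to 49.2), 35.7% (31.4 to 40.3) and 23.7% (20.5 to 27.2). The region at 62662555 went the other way, with 9.52% (6.25 to 14.3), 19.3% (16.6 to 22.4) and 35.2% (32.8 to 37.8) of Stat5b reads and 17.7% (13.8 to 22.4), 18.1% (14.8 to 21.9) and 25.6% (22.3 to 29.2) of Stat5a reads. The intervals of 13 h and 2 rounds did not overlap for either region and either antibody with all reads. On the 25 bp reads of Stat5a after 2 rounds, 62653332 held 34.5% (27.2 to 42.5) and 62662555 held 11.0% (6.91 to 17.2). On those of 13 h they held 39.5% (34.5 to 44.7) and 18.2% (14.5 to 22.5), so neither shift was clear in 25 bp reads. A share does not depend on how libraries are scaled. The region at 62638821 held 20%, 17.1% and 5.74% of Stat5b reads and 17.7%, 13.8% and 7.84% of Stat5a reads, and the region at 62658228 held 3.81%, 4.28% and 10.8% and 4.26%, 6.70% and 9.28%. In IgG the region at 62662555 held 17.9%, 8.86% and 5.38% of 56, 79 and 93 reads, and that at 62653332 held 28.6%, 32.9% and 25.8%.

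**Figure D3:**
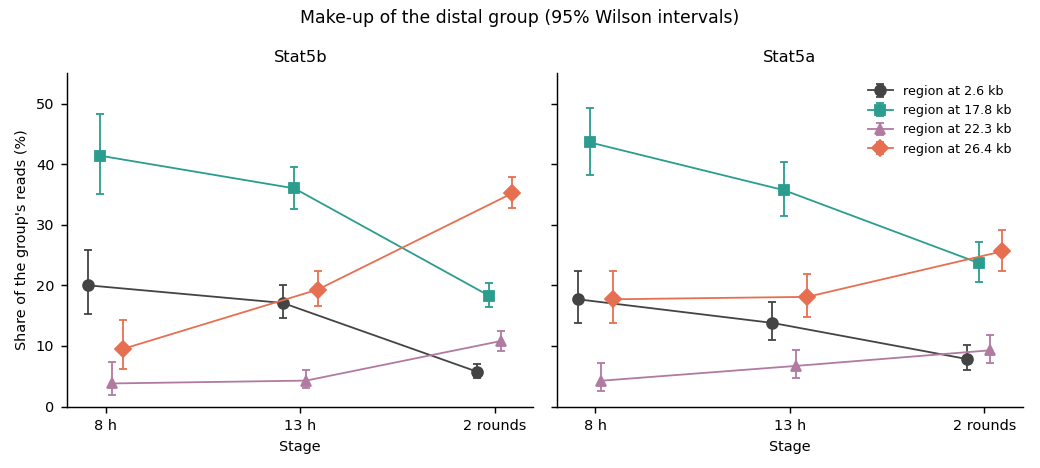
Share of the distal group's reads (vertical axis, %) held by the 4 of its regions with the most ChIP reads, at 2.6, 17.8, 22.3 and 26.4 kb from the left edge, at each stage (horizontal axis), for Stat5b and Stat5a, with 95% Wilson intervals. The share of the region at 17.8 kb is lower after 2 rounds than at 13 h and that of the region at 26.4 kb is higher, in both antibodies with all reads; on 25 bp reads alone the Stat5a shares after 2 rounds are 34.5% and 11.0%.

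Stat5b was below Stat5a in the group at 8 h and above it later. The ratio of Stat5b to Stat5a was 0.314 (0.262 to 0.375) at 8 h, 1.49 (1.32 to 1.68) at 13 h and 1.91 (1.74 to 2.10) after 2 rounds, or 3.75 (3.16 to 4.48) with 25 bp reads alone. The medians over all merged regions were 0.547, 1.24 and 2.43, so relative to the median the group stood at 0.574 (0.479 to 0.686), 1.20 (1.06 to 1.35) and 0.786 (0.715 to 0.866). In the window 10 of 89 regions were called lower in Stat5b than in Stat5a at 8 h (3.80% of all merged regions were) and 0 higher (0.0480% of all), 2 of the 10 in the group. At 13 h, 3 were higher (2.08% of all) and 0 lower (5.33%), and after 2 rounds 15 were higher (17.2%) and 0 lower (0.487%). Over the 53 window regions in at least 2 lists, Spearman's rho of Stat5b with Stat5a reads was 0.67, 0.75 and 0.90, in order of stage. After 2 rounds it was 0.63 with the 25 bp reads of Stat5a and 0.85 with the 24 bp reads, so the higher value at the last stage is not seen on 25 bp reads. For Stat5b with IgG of the same stage it was 0.45, 0.52 and 0.43. These are regions of the same libraries and differ in width, which both factors and IgG share, so the coefficients are descriptions.

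In Stat5a after 2 rounds the distal group differed by read length. Its level was 133 RPM among 24 bp reads against 47.9 RPM among 25 bp reads, each scaled to the reads of that length, a ratio of 2.76 (2.29 to 3.35). In the rest of the window the ratio was 1.93 (1.77 to 2.11), and over all merged regions 0.901 (0.940 over those in at least 2 lists). In Stat5a at 13 h the group went the other way, with 30.4 RPM among 24 bp reads against 68.3 RPM among 25 bp reads, a ratio of 0.445 (0.352 to 0.559), beside 0.747 over all merged regions. IgG after 2 rounds had 18.1 RPM against 9.13 RPM, a ratio of 1.98 (1.08 to 4.0), on 12 reads of 25 bp, and IgG at 13 h had a ratio of 0.690 (0.426 to 1.10). The region at 62662555 held 30% of the group's 24 bp reads and 11.0% of its 25 bp reads after 2 rounds, at 39.8 RPM against 5.29 RPM, while the region at 62653332 held 20.4% and 34.5%. At 13 h, 62653332 held 21.9% (14.8 to 31.1) of the group's 24 bp reads and 39.5% (34.5 to 44.7) of its 25 bp reads. Its share was thus not clearly lower after 2 rounds within either length. The group had 96 reads of 24 bp and 352 of 25 bp at 13 h, and 480 and 145 after 2 rounds. At 13 h, 62662555 held 17.7% (11.4 to 26.5) of 24 bp reads and 18.2% (14.5 to 22.5) of 25 bp reads. After 2 rounds its share was higher in 24 bp reads and lower in 25 bp reads. The intervals then were 26.1 to 34.2 and 6.91 to 17.2, and each overlapped that of 13 h. Its share was thus not clearly higher after 2 rounds within either length. In Stat5b, whose reads are all 25 bp, the shift toward the right end was present.

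Over the window 13 regions were higher and 1 lower in the 24 bp reads of Stat5a after 2 rounds (2.03% and 2.84% of all merged regions), 4 of the 13 in the distal group. In Stat5a at 13 h, 0 were higher and 3 lower (0.123% and 1.04% of all). The IgG libraries gave 1 higher and 0 lower at 13 h (0.535% and 0.164% of all) and 0 higher and 1 lower after 2 rounds (0.0320% and 1.64%). Among the most unequal were chr15:62117863-62118660, with 93 reads of 24 bp against 3 of 25 bp after 2 rounds, chr15:62564386-62565514, with 95 against 7, and chr15:62015660-62016602, with 40 against 0. Over the 53 regions in at least 2 lists, Spearman's rho of 24 bp with 25 bp reads was 0.45 in Stat5a after 2 rounds and 0.69 in Stat5a at 13 h. In Stat5a at 13 h, 14.3% of 25 bp starts recurred among 24 bp reads at an offset of 1 bp. After 2 rounds 0.65% did in Stat5a, and in IgG 0.52% did at 13 h and 0.64% after 2 rounds. What separates the reads of each length was not tested, and the labels give 22 lanes for the 9 libraries without tying them to reads.

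**Figure D4:**
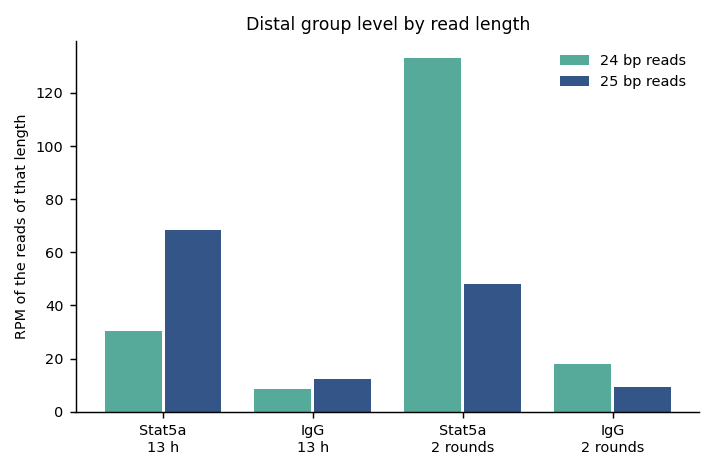
Level of the distal group (vertical axis, RPM scaled to the reads of the same length) in 24 bp and 25 bp reads of the 4 libraries that hold both, 1 library per pair of bars. The 24 bp level is 133 RPM in Stat5a after 2 rounds, against 47.9 RPM for 25 bp reads, and the order is the other way in Stat5a at 13 h.

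Upstream of the distal group, the left end of the window held a low and broad cluster. From 61812735 to 61817625 the 4 regions in at least 2 lists together had 9.47, 17.5 and 25.5 RPM of Stat5b and 13.4, 11.6 and 7.37 RPM of Stat5a, in order of stage, against 4.49, 4.65 and 4.84 RPM of IgG. IgG was comparatively high there: chr15:61816159-61817625 had 27, 67 and 92 Stat5b reads and 3, 38 and 22 Stat5a reads against 19, 23 and 18 IgG reads. At chr15:61815009-61815550 Stat5a fell, to 10 reads at 13 h against 19 at 8 h, in libraries of 8311042 and 3130228 reads, a ratio of 0.198 (0.0823 to 0.448), and it had 2 reads after 2 rounds.

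Farther downstream, chr15:61998584-62000194 was present throughout, in all 6 lists, with 9.47, 23.0 and 27.0 RPM of Stat5b and 15, 15 and 9.18 RPM of Stat5a, in order of stage, against 1.92, 2.13 and 1.73 RPM of IgG. The region chr15:62019129-62020605, also in all 6 lists, had 3.93, 16.3 and 33.7 RPM of Stat5b and 16.9, 8.42 and 8.88 RPM of Stat5a. Stat5b rose there by 4.14 times (2.73 to 6.49) from 8 h to 13 h, while Stat5a had a ratio of 0.497 (0.343 to 0.725). The other regions in all 6 lists outside the distal group are those starting at 62069587, 62097668, 62100879, 62287361, 62553565, 62560035, 62570184 and 62581738.

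Called changes between stages in the window were mostly higher levels after 2 rounds in Stat5b, which were also common among all merged regions. Comparing 2 rounds with 13 h, Stat5b rose in 31 of 89 regions and fell in 1 (25.1% and 0.637% of all merged regions), and Stat5a rose in 10 and fell in 1 (7.67% and 3.97%). Comparing 13 h with 8 h, Stat5b rose in 7 and fell in 0 (5.27% and 0.304% of all), and Stat5a rose in 0 and fell in 4 (0.286% and 2.15%). Comparing 2 rounds with 8 h, Stat5b rose in 53 and fell in 0 (43.4% and 0.215%), and Stat5a rose in 4 and fell in 2 (3.73% and 1.91%). Scaled by the median ratio of all merged regions, Stat5b was higher in 1 and lower in 4 for 2 rounds over 13 h, higher in 0 and lower in 1 for 13 h over 8 h, and higher in 4 and lower in 7 for 2 rounds over 8 h. In IgG, 1 region was higher and 0 lower for 2 rounds over 13 h (0.644% and 0.0914% of all), 0 higher and 1 lower for 13 h over 8 h (0.254% and 0.461%), and 1 higher and 0 lower for 2 rounds over 8 h (0.551% and 0.146%). With 25 bp reads alone, 5 regions rose and 2 fell for Stat5a from 13 h to 2 rounds. Shares of all merged regions are not given for the median scaling or for 25 bp reads, so nothing is read from those counts.

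The largest late gains by reads lay outside the distal group as well as in it. The region chr15:62581738-62583807 had 6.55, 18.1 and 58.1 RPM of Stat5b and 18.5, 13.1 and 47.1 RPM of Stat5a, in order of stage, against 3.20, 1.46 and 2.07 RPM of IgG. From 13 h to 2 rounds it rose in both, by 3.20 times (2.67 to 3.85) in Stat5b and 3.59 times (2.88 to 4.51) in Stat5a, where 257 reads of 24 bp stood against 56 of 25 bp. With 25 bp reads alone the Stat5a ratio was 1.10 (0.770 to 1.55), which is not a call. Its neighbour chr15:62592500-62593523 rose by 10.5 times (7.03 to 16.3) in Stat5b and 5.20 times (3.64 to 7.57) in Stat5a, or 3.35 times (2.12 to 5.39) with 25 bp reads alone. The region chr15:62187919-62188871 had 1.02, 8.30 and 39.2 RPM of Stat5b and 6.07, 2.53 and 16.1 RPM of Stat5a against at most 1.04 RPM of IgG, and it was called in Stat5b between every pair of stages. On distinct starts the call of 13 h over 8 h was lost there, at 4.48 (1.96 to 12.0). The region chr15:62058968-62060001 had 2.04, 7.97 and 42.8 RPM of Stat5b and 5.43, 8.66 and 12.6 RPM of Stat5a, and chr15:62268107-62269187 had 2.33, 5.20 and 28.3 RPM and 5.43, 5.05 and 20.6 RPM. With 25 bp reads alone the Stat5a ratio of 2 rounds over 13 h was 0.593 (0.313 to 1.07) at 62058968. It was 2.03 (1.09 to 3.81) at 62187919 and 3.16 (1.94 to 5.24) at 62268107, neither a call.

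Some regions had lower levels late than early. Comparing 2 rounds with 8 h, the ratio was below 1 in 11 of 88 window regions for Stat5b and in 33 of 86 for Stat5a, with the whole interval below 1 in 3 and 14 of them. The region chr15:62608582-62609074, between the last upstream cluster and the distal group, had 10, 24 and 2 Stat5b reads, in order of stage, and was the 1 region that fell in Stat5b after 2 rounds, at 0.0983 times its 13 h level (0.0113 to 0.396). On distinct starts it did not pass. At chr15:62548227-62548747 Stat5b had 28, 36 and 10 reads, and at chr15:62553565-62554441, in all 6 lists, it had 5.39, 4.87 and 5.09 RPM.

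**Figure D5:**
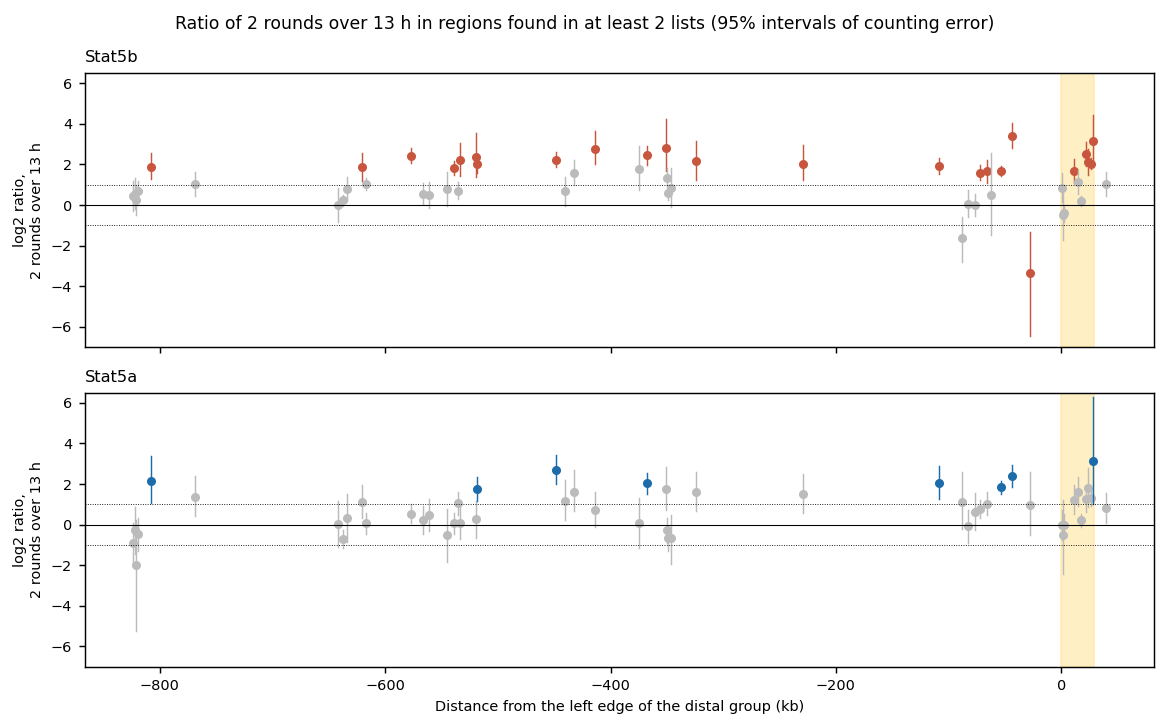
Ratio of 2 rounds over 13 h on a log2 scale (vertical axis) for window regions in at least 2 lists, 53 in Stat5b and 52 in Stat5a, against distance from the left edge of the distal group (horizontal axis, kb); 1 region with 0 Stat5a reads at 13 h is not drawn. Lines are 95% intervals of counting error, coloured points are called regions, dotted lines mark the thresholds and the distal group is shaded: 23 coloured points lie above and 1 below in Stat5b, and 8 lie above in Stat5a.

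Among clusters of the genome the distal group was one of the strongest at each stage. Merged regions in at least 2 lists with gaps under 10 kb formed 11307 groups, 19 of them in the window, and 10 of the 11 distal regions made up this one. By RPM above IgG, averaged over Stat5b and Stat5a, it ranked 8 at 8 h, 11 at 13 h and 12 after 2 rounds, with 54.9, 56.5 and 119 RPM. Its neighbour at chr15:62548227-62593523, with 8 regions, ranked 17, 31 and 11, with 37.2, 39.2 and 119 RPM. By number of regions the distal group ranked 11, tied with others: 15 groups had as many regions or more, and the group with the most had 22. The 5 groups whose levels over the 6 ChIP libraries were most like those of the distal group, by Pearson's r of log2 RPM above a floor of 3 counts, had r between 0.9976 and 0.9986, beside a median of 0.77 over the other 11306 groups. They lie at chr8:48439933-48442894, chr9:32774132-32774928, chr13:105406879-105408867, chr10:96047627-96063482 and chr4:87447468-87458858. The group on chromosome 4 was the strongest of these, with 17.5, 40.3 and 79.5 RPM of Stat5b and 49.8, 27.1 and 48 RPM of Stat5a, in order of stage. Within the window r was highest, 0.98, with the groups at 62015660 and 62675614, and lowest, -0.29, with the region at 62608582. Such coefficients over 6 libraries share depth and scaling, and many groups follow the same library-wide differences.

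Forward and reverse reads were set apart in most regions with enough starts. In regions with at least 10 distinct starts on each strand, the median position of reverse reads lay downstream of that of forward reads by a median of 144, 120 and 115 bp for Stat5b (9, 26 and 46 window regions) and 96.5, 83.5 and 138 bp for Stat5a (7, 17 and 25 regions), in order of stage. Over all regions in at least 2 lists the medians were between 100 and 128 bp for the ChIP libraries and between 25 and 26 bp for IgG. The distance was negative in 3 of 7 window regions in Stat5a at 8 h and in 6 of 46 in Stat5b after 2 rounds. The widest distal region, at 62653332, had distances of 48, -540 and -527 bp in Stat5b and -466, 31.5 and -136 bp in Stat5a, and its reads spread over neighbouring bins. Midpoints of Stat5b and Stat5a differed by a median of 64.2 bp at 8 h (6 regions), 50.8 bp at 13 h (15 regions) and 23.2 bp after 2 rounds (25 regions). Of the 214 pairs of a region and a ChIP library with at least 20 reads, 1 had over 50% of its reads at a single start and strand, chr15:62074347-62074863 in Stat5b at 13 h with 11 of 21 reads. In the distal group the reads per distinct start were 1.24, 1.84 and 1.87 for Stat5b and 1.82, 1.74 and 1.74 for Stat5a, beside 1.35, 1.59 and 1.55 and 1.53, 1.59 and 1.64 over those libraries.

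Between its regions the window was close to IgG in most libraries. Outside regions the ratio of Stat5b to IgG was 1.01, 1.15 and 1.06 and that of Stat5a was 1.32, 1.06 and 1.08, in order of stage, while over chromosome 15 all 6 were between 0.843 and 0.980. The Stat5a library at 8 h was the highest, with 1.32 (1.24 to 1.40), and on distinct starts its interval was 1.22 to 1.41. In the gaps inside the distal group the ratios after 2 rounds were 1.45 (1.10 to 1.92) for Stat5b and 1.48 (1.12 to 1.98) for Stat5a, on 80 IgG reads.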

How the data were processed

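Mapped reads and peaks of Stat5b, Stat5a and IgG ChIP-seq libraries were used as deposited. The authors' files give the start and end positions in bp of each read, and of each peak for the 6 ChIP libraries, on mm8; for the aligner, the peak caller and its threshold no source used here gives a name. All value columns were mapped to a sample (0 left out). Reads were counted at their 5' end, and those of 24 bp were moved 1 bp upstream, since in Stat5a at 13 h starts of both lengths recurred at that offset. RPM used all mapped reads of a library. Ratios have exact conditional intervals at 95%, and a call needed an interval wholly above 2 or below 0.5. Every region of the distal group was named, as were other regions in at least 3 lists and the 3 of each stage whose mean ChIP level exceeded IgG most. Regions given as examples of unequal read length, and the regions at 61815009, 61816159, 62074347 and 62608582, were named after their values were seen. Alternatives were counting each start and strand once, scaling to the median ratio or to reads between regions, a 75 bp shift, 25 bp reads alone, pooled IgG, the whole interval, the upper 50% of each list, wider bounds and a stricter overlap. The ratio intervals and calls were tested on simulated counts per region, with changes set only in regions with many expected reads in both libraries. The counting of reads was not part of that test. The members, bounds and rules were chosen with earlier results of these data known. Computations ran in Python 3.11.15 with scipy 1.17.1, pandas 2.3.3 and numpy 2.4.6, and figures were drawn with matplotlib 3.10.9.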

Additional observations from a re-analysis of the deposited data

Results flagged for a closer look

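Between 13 h and 8 h, Stat5b and Stat5a had ratios on opposite sides of 1, for all reads as for distinct starts, which is what drew attention; with 1 library each, that difference was not tested. In the distal group as a whole the ratio of 13 h over 8 h was 2.62 for Stat5b and 0.553 for Stat5a. In the rest of the window it was 2.29 and 0.766, and the medians over all merged regions were 1.90 and 0.869. The opposite sides are therefore not particular to the group. Among single regions it was 2.24 for Stat5b and 0.432 for Stat5a at 62638821, 2.28 and 0.453 at 62653332, 5.32 and 0.565 at 62662555, and 4.14 and 0.497 at 62019129. For 2 rounds over 8 h the region at 62653332 did the same, with 2.60 for Stat5b and 0.524 for Stat5a. The medians over all merged regions were 4.82 and 1.10 for these stages, so relative to the median both antibodies were below 1 there. The Stat5a library at 8 h is the shallowest of the 9, with 3130228 reads, and every such ratio for Stat5a rests on it. The part of depth in these ratios was not tested.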

How the results depend on the processing

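No paired analysis was possible because each antibody and stage has 1 library. Scaling by the median ratio over all merged regions changed most. It left 3, 6 and 9 window regions above IgG for Stat5b and 8, 3 and 10 for Stat5a (in order of stage), and gave distal ratios to IgG of 2.25 (Stat5b, 8 h), 1.85 (Stat5b, 2 rounds), 2.13 (Stat5a, 13 h) and 2.24 (Stat5a, 2 rounds), none of these called. The distal ratios of Stat5b at 13 h and Stat5a at 8 h are not among these. Before this scaling they were 7.63 and 10.9, beside medians of 2.91 and 2.66. Distal Stat5b stage ratios became 1.38 (13 h over 8 h), 0.870 (2 rounds over 13 h, reversed) and 1.22 (2 rounds over 8 h), with 1, 5 and 11 regions called. Stat5b over Stat5a became 0.574 at 8 h and 0.786 after 2 rounds (reversed), and 6 regions were called for Stat5a at 2 rounds over 13 h. Single regions reversed for Stat5b over IgG after 2 rounds at 62102117 (0.807) and 62553565 (0.975), and for Stat5b at 2 rounds over 8 h at 61998584 (0.592), 62002626 (0.769), 62287361 (0.997), 62570184 (0.744), 62653332 (0.539) and 62675614 (0.733).

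With 25 bp reads alone, 32 regions were above IgG for Stat5b and 9 for Stat5a after 2 rounds, Stat5b over Stat5a after 2 rounds was 3.75, and 7 regions were called for Stat5a at 2 rounds over 13 h. The distal Stat5a ratio of those stages reversed to 0.702, and 24 bp reads alone, an alternative chosen after seeing the data, gave 4.36. Single Stat5a regions reversed at 62195799 over IgG after 2 rounds (0.652), at 62015660 (0), 62117863 (0.183), 62564386 (0.209) and 62664862 (0) for 2 rounds over 13 h, and at 62117863 (0.311) for 2 rounds over 8 h.

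Counting each start and strand once gave 16 regions above IgG for Stat5a at 13 h, 2 and 20 called for Stat5b and 2 and 6 for Stat5a at 13 h over 8 h and 2 rounds over 13 h, distal Stat5b stage ratios of 2.09 and 2.14, not called, Stat5b over Stat5a of 0.406 at 8 h, and a distal share of 19.1% for Stat5b after 2 rounds (21.3% with wider bounds). Of all merged regions, 3.74% were above IgG for Stat5a at 13 h on distinct starts. For Stat5b 1.13% and 14.8% were higher at 13 h over 8 h and 2 rounds over 13 h. For Stat5a 0.555% were lower at the first and 2.56% higher at the second. The whole interval gave 2.08 for Stat5b over IgG at 8 h and stage ratios of 2.17 and 2.13 for Stat5b, not called. Pooled IgG left 48 regions for Stat5a after 2 rounds, and the 75 bp shift 11 for Stat5b at 13 h over 8 h. Regions from the other antibody's lists, also chosen after seeing the data, gave 2 for Stat5a at 13 h over 8 h and 35 for Stat5b at 2 rounds over 8 h. With an overlap of 50% of both peaks, 3 peaks of each antibody were shared at 8 h and 23 after 2 rounds. In this section shares of all merged regions are given for counts on distinct starts only, so nothing is read from the other counts. The cause of these changes was not tested. With 1 library per group no difference has a replicate check, and regions with under 10 reads leave wide intervals.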
